A study of Mus musculus with 2 samples.

Results

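EGF-ligand-high tumour cells were defined here as RM-1 tumour cells carrying many transcripts of 3 ligands of the epidermal growth factor (EGF) receptor family, Areg, Ereg and Btc, and few of Serpinb2. A barcode counted as a tumour cell when it had at least 500 detected genes, at most 15% mitochondrial UMIs (unique transcript molecules), at least 3 UMIs of the keratins Krt8 and Krt18, and at most 1 UMI of the leukocyte genes Ptprc, Lyz2, C1qa and Fcer1g. Of 20198 barcodes, 15295 met these conditions. Ligand-high cells were those with at least 10 UMIs of Areg, Ereg and Btc together and at most 1 UMI of Serpinb2, and there were 2339 of them, 1186 in the vehicle library and 1153 in the RP-6306 library. They were compared with 10671 other tumour cells (5247 and 5424), which had fewer than 10 ligand UMIs and at most 1 Serpinb2 UMI.

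The tumours were subcutaneous grafts, in C57BL/6 mice, of RM-1 cells, a prostate cancer line of mouse origin whose genotype is labelled WT. Mice received vehicle or RP-6306, tumours were taken 10 days after treatment, and the 3′ ends of their transcripts were sequenced cell by cell in droplets. RP-6306 is an inhibitor of PKMYT1, a kinase that holds the mitotic kinase CDK1 inactive. Each treatment had 1 library, and the labels name 2 grafted mice without saying whether this is 1 per library. The age of the mice and the dose are not given in the sources used here. Both groups share the cell line, the host strain and the graft site.

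As there was 1 library per treatment, the spread between animals is unknown and no difference was tested, and no test of ligand-high against other cells was possible because the counts of the same cells chose them. "Higher" and "lower" below compare cells or libraries as measured, and intervals are 95% intervals that cover counting error only. UMIs of a gene clump in single cells, so these intervals are too narrow. Levels are CPM, the usual counts-per-million scale, here the UMIs of a gene over all UMIs summed in a set of cells, and ratios are log2 of CPM + 1. Levels of 3′ counts are not scaled by transcript length and are compared here for 1 gene between sets.

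EGF-family ligands are made as membrane-anchored precursors. Metalloproteases such as ADAM17 shed them, and the released peptides bind EGFR and its ErbB relatives on the same or neighbouring cells, which feeds the RAS and ERK kinase cascade. Areg (amphiregulin) and Ereg (epiregulin) are themselves induced by ERK signalling and are known from wounded epithelia and from tumours.

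Areg, Ereg, Btc and the ligand gene Epgn are neighbours on mouse chromosome 5. In GENCODE M21 (GRCm38) Epgn lies at 91027464 to 91035215, Ereg at 91074622 to 91093646 and Areg at 91139599 to 91148432, all on the forward strand, and Btc lies at 91357261 to 91402994 on the reverse strand. No other protein-coding gene lies between them. The 250 bases before the starts of Areg, which dominated the ligand sum, and Btc are shown from RefSeq on GRCm38.p6. They were shown because no transcript is annotated in them in RefSeq or GENCODE M21, and Ereg had no window. The windows are chr5:91139349-91139598 (forward strand) and chr5:91402995-91403244 (reverse strand), read 5′ to 3′, and capitals mark a match to a cyclic AMP response element (TGACGTCA) or to a TATA box (TATAAA).

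Areg: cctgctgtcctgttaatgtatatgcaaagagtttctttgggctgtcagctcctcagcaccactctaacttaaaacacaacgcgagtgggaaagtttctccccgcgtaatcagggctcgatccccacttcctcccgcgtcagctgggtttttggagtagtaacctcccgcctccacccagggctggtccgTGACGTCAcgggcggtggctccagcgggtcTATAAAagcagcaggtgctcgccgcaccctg
Btc: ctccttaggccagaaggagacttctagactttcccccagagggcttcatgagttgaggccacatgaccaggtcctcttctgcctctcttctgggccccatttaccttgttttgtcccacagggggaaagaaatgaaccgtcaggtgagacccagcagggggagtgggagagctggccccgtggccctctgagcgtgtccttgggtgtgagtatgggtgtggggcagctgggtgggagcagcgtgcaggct

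Both strands were searched for 4 motifs: the cyclic AMP response element, the AP-1 site TGAGTCA, the TEAD site GGAATG and the TATA box. The Areg window held the response element, beginning 61 bases before the start, and a TATA box beginning 31 bases before it, while the Btc window held none of the 4. Of 32851 promoter windows of this length, 1.55% held the response element, 4.46% the AP-1 site, 12.6% the TEAD site and 12.4% the TATA box. Of 13 genes looked up, 10 had a window, and Ereg, Gprc5a and Klf5 had none. The Nppb window held a TEAD match beginning 105 bases before the start and a TATA box at 31, the Epgn window a TATA box at 86, the Plaur window an AP-1 match at 69 and 1 of 2 Il11 windows an AP-1 match at 98. The windows of Dusp5, Ptgs2, Ptn and Tgfa held none. Distances are counted from the RefSeq start, which can differ from the GENCODE start. The Epgn window runs to 91027516, past the GENCODE Epgn start given above. The Nppb window overlaps an untranslated exon annotated in GENCODE. A match describes letters in the window and says nothing of binding.

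Ligand-high cells made up 15.9% of the tumour cells in the vehicle library (1186 of 7470, exact binomial interval 15.1 to 16.7%) and 14.7% in the RP-6306 library (1153 of 7825, 14.0 to 15.5%). The difference was -1.14 percentage points, with an interval of -2.29 to 0.00843 that included 0. Between 8000 and 20000 UMIs per cell the shares were 19.7% and 17.0%. With cells thinned to 5000 UMIs and the ligand threshold lowered to 5 UMIs they were 14.5% and 14.1%. The size of the difference thus depended on how depth and threshold were set. These cells held 41.1% and 38.7% of the ligand UMIs of all gated tumour cells. Their median was 16 ligand UMIs per cell in the vehicle library and 15 in the RP-6306 library, and their maximum 103 and 100, against a median of 2 in the other cells of either library.

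**Figure D1:**
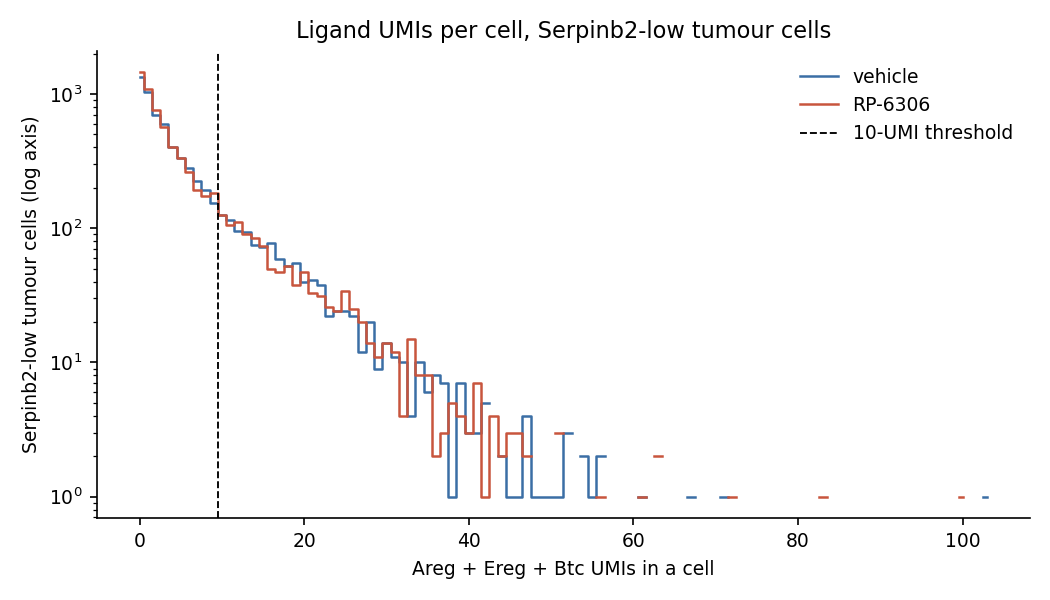
Number of Serpinb2-low tumour cells (y, log axis) by their Areg, Ereg and Btc UMIs (x), as a step line per library, with the 10-UMI threshold dashed. The counts fall without a gap through the threshold, from 154 vehicle and 184 RP-6306 cells at 9 UMIs to 126 and 125 cells at 10.

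No gap separated ligand-high cells from the rest. The 345 vehicle cells with 8 or 9 ligand UMIs had 395 CPM of Areg, and the 242 with 10 or 11 had 503 CPM. In the RP-6306 library these were 408 CPM (357 cells) and 514 CPM (230 cells). Nppb stood at 38.4 CPM just outside and 48.6 CPM just inside the threshold in the vehicle library, and at 30.0 and 33.7 CPM in the RP-6306 library. The cells are thus the upper part of a continuous range.

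The rule counts raw UMIs and so takes deeper cells. Ligand-high cells had a median of 13029.5 UMIs in the vehicle and 12501 in the RP-6306 library, against 9161 and 9412 in other cells. Median mitochondrial shares were 1.30% and 1.25%, against 1.33% and 1.31%. Doublet scores in the top 8% of a library were carried by 9.87% and 11.01% of ligand-high cells and by 7.55% and 7.69% of other cells, and 1 leukocyte-gene UMI by 18.7% and 19.3% against 15.7% and 15.04%. Values for cells of 8000 to 20000 UMIs are given where they changed a statement. The part of doublets and free RNA in the results was not tested beyond leaving such cells out. Leaving them out changed no sign among 114 gene ratios checked, those of genes chosen for large ratios. Small ratios given below were not among these 114.

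Markers are given as description and do not test the label. The rule requires keratin UMIs and limits leukocyte UMIs, and the markers were chosen with earlier results of these data known. Areg, Ereg and Btc chose the cells and are described only. Nppb, a listed marker of these cells that is not part of the rule, encodes B-type natriuretic peptide. It was more than 2-fold higher than in other Serpinb2-low tumour cells of both libraries. Against all tumour cells outside the set, Serpinb2-positive ones included, its log2 ratios were only 0.49 and 0.21. Among tumour markers outside the rule, the keratin Krt19 stood at 263 CPM against 187 CPM in other vehicle cells and at 194 against 145 CPM in the RP-6306 library. Sox9, a lineage factor, stood at 149 against 117 CPM and at 144 against 118 CPM, while Krt7 had 0 UMIs. The 12 macrophage markers, 3 of them rule genes, summed to 45.9 and 43.7 CPM in ligand-high cells and to 43.3 and 40.5 CPM in other cells, against 18879 and 19189 CPM in macrophage-gated cells (at least 5 leukocyte-gene UMIs and at most 2 keratin UMIs). Ms4a7 was at 0 in RP-6306 ligand-high cells, and the other macrophage markers were detected. The 8 fibroblast markers summed to 669 against 882 CPM and to 763 against 950 CPM, lower in ligand-high cells of both libraries.

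Areg, amphiregulin, gave most of the signal. It stood at 938 CPM in ligand-high and 139 CPM in other vehicle cells, and at 963 and 129 CPM in the RP-6306 library. Areg held 75.1% of the ligand UMIs in the ligand-high cells treated with vehicle and 74.5% with RP-6306. It was the most abundant of the 3 ligands in 1040 of 1186 ligand-high cells of the vehicle library (87.7%) and in 986 of 1153 of the RP-6306 library (85.5%), and alone reached 10 UMIs in 796 and 770 of them.

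Ereg, epiregulin, stood at 179 and 49.5 CPM in the vehicle library and at 220 and 51.7 CPM in the RP-6306 library, ligand-high cells first. Ereg led in 97 and 126 ligand-high cells. Btc, betacellulin, stood at 133 and 61.8 CPM and at 109 and 55.1 CPM and led in only 29 and 17 cells. All 3 ligands were found together in 596 vehicle cells (50.3%) and 533 RP-6306 cells (46.2%), exactly 2 of them in 480 (40.5%) and 471 (40.85%), and a single ligand in 110 and 149 cells. Most ligand-high cells thus carried more than 1 of the ligands that chose them.

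Of the ligands outside the rule, Hbegf, heparin-binding EGF-like growth factor, followed the same direction at smaller size. It stood at 330 CPM against 225 CPM in vehicle cells and at 260 against 184 CPM in RP-6306 cells, log2 ratios of 0.55 and 0.50. Tgfa, transforming growth factor alpha, was scarce at 8.77 against 6.07 CPM and 9.50 against 7.67 CPM. Egf itself had 0.23 and 0.37 CPM in ligand-high cells, the neighbouring Epgn 0.12 and 0.00 CPM, and Nrg1, a ligand of ErbB3 and ErbB4, 0.70 and 0.43 CPM, all under 1 CPM.

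The receptors did not follow the ligands. Egfr, the receptor for Areg and Hbegf, stood at 13.8 against 15.7 CPM in the vehicle library and at 13.9 against 14.3 CPM in the RP-6306 library, and the intervals of both ratios included 1. Erbb2, the co-receptor without a ligand of its own, stood at 4.82 against 6.62 CPM and at 6.79 against 5.86 CPM, in opposite directions in the 2 libraries. Erbb3 had at most 0.09 CPM in ligand-high or other cells, and Erbb4 was at 0 in all of them. Of 14 measured receptor, shedding and adaptor genes, 6 were higher and 4 lower in both libraries, with medians of -0.01 and 0.10. Errfi1, a feedback inhibitor of EGFR, stood at 239 against 201.6 CPM and 221 against 176 CPM.

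**Figure D2:**
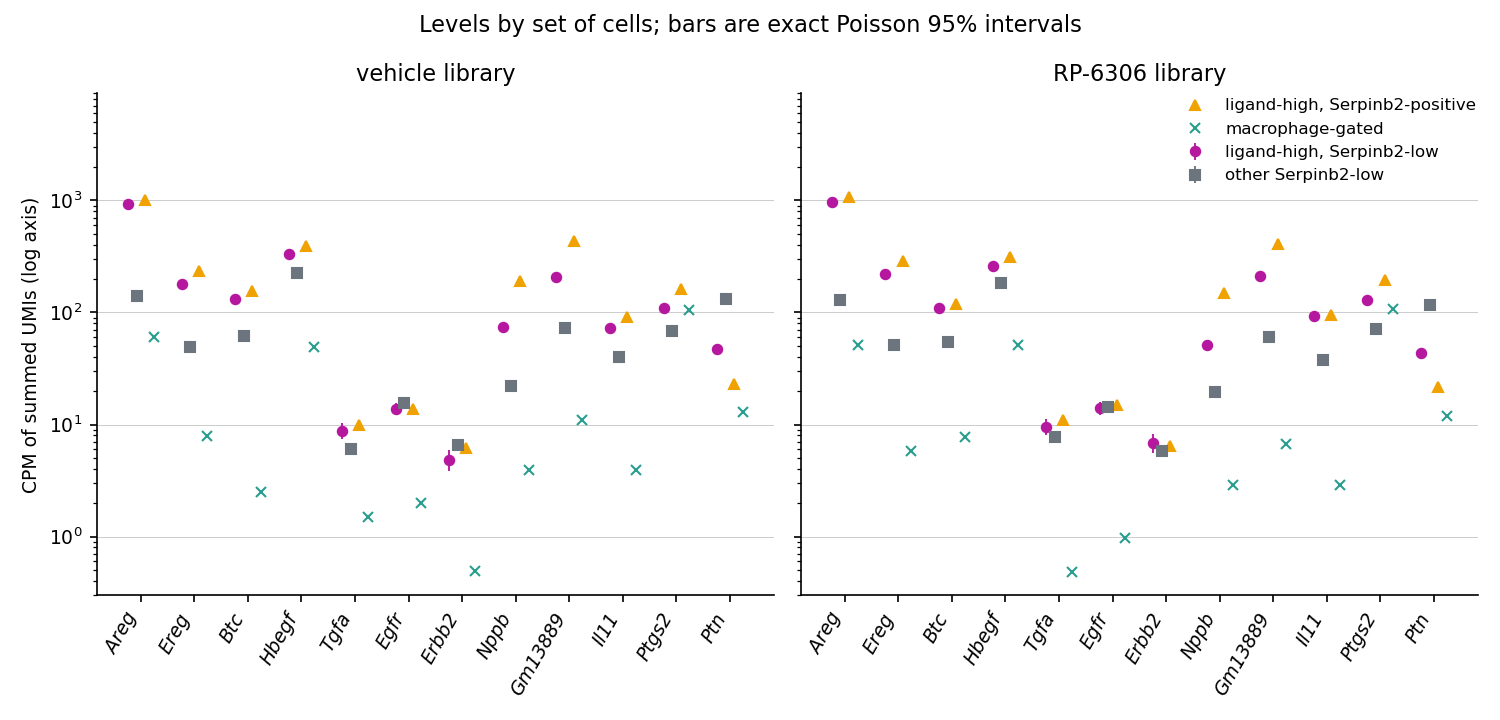
CPM of summed UMIs (y, log axis) of 12 genes in 4 sets of cells, vehicle library left and RP-6306 library right, with exact Poisson 95% intervals on ligand-high and other cells; points at 0 are not drawn. Nppb reads 73.8 and 51.4 CPM in ligand-high cells and 22.1 and 19.7 CPM in other cells, Ptn the reverse order, and Egfr nearly the same in both.

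Across the rest of the transcriptome, differences were small. Of 3028 genes with at least 100 UMIs in ligand-high cells and 50 CPM in the higher set of each library, 2 were at least 2-fold higher in both libraries (0.0661%) and 1 at least 2-fold lower (0.033%), the rule genes left out. At any size 38.5% of them were higher and 44.5% lower in both libraries. Nppb stood at 73.8 CPM (interval 69.8 to 77.9) against 22.1 CPM in vehicle cells and at 51.4 CPM (48.0 to 55.0) against 19.7 CPM in RP-6306 cells. Its log2 ratios were 1.69 and 1.34. Nppb UMIs were found in 396 vehicle (33.4%) and 307 RP-6306 ligand-high cells (26.6%), so most of these cells had none.

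Gm13889 (chromosome 2, 93955810 to 93957201, GRCm38), a protein-coding gene model that the naming rule leaves out and that is given because it was 1 of 2, stood at 207 against 73.3 CPM and at 213 against 59.97 CPM. Ptn encodes pleiotrophin, a secreted heparin-binding growth factor, and went the other way, with 47.6 against 132 CPM and 43.2 against 117 CPM, log2 ratios of -1.45 and -1.41. With all tumour cells outside the ligand-high set as reference, including Serpinb2-positive ones, Nppb had log2 ratios of 0.49 and 0.21 and Gm13889 of 0.59 and 0.80, below 2-fold, and Ptn had -1.17 and -1.13.

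**Figure D3:**
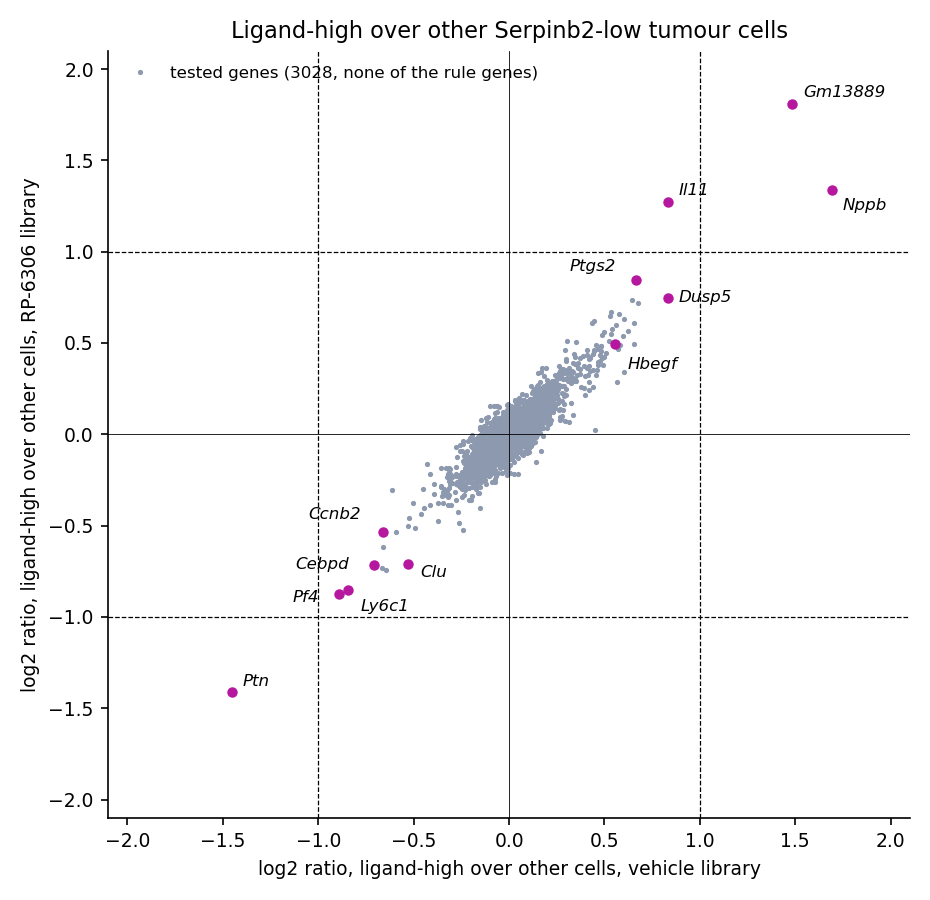
Log2 ratio of ligand-high over other tumour cells for each of 3028 genes, vehicle library on x and RP-6306 library on y, with 2-fold lines dashed and 12 genes named. Gm13889 and Nppb lie past 2-fold at the upper right and Ptn at the lower left, and Il11 is past it in the RP-6306 library only.

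At thinned depth the share of cells with a UMI gave the same order. With 4000 UMIs drawn per cell, which left out 2 and 8 ligand-high, 206 and 249 other and 229 and 276 macrophage-gated cells, Nppb was found in 17.3% and 14.9% of ligand-high, 6.03% and 5.70% of other and 1.40% and 0.452% of macrophage-gated cells. Ptn was found in 16.4% and 12.8%, 33.7% and 29.5%, and 3.26% and 4.52% of them. Egfr was found in 5.15% and 4.45% of ligand-high cells and in 6.45% and 6.01% of other cells. Median depths before thinning are given above, and were 3901 and 3583 UMIs in macrophage-gated cells.

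A lower level, a log2 ratio of 0.3 chosen after the data were seen, was reached by 86 higher genes (2.84%) and 32 lower genes (1.06%) in both libraries. The genes of this range named here were chosen by size after their values were seen. Il11, a cytokine of the interleukin 6 family, stood at 72.5 against 40.3 CPM and at 92.3 against 37.6 CPM, log2 ratios of 0.83 and 1.27. Dusp5, a nuclear phosphatase that inactivates ERK, stood at 554 against 310 CPM and at 477 against 284 CPM. Ptgs2, the inducible prostaglandin synthase COX-2, stood at 109 against 68.3 CPM and at 129 against 71.6 CPM, and at 105 and 108 CPM in macrophage-gated cells. Plaur, the urokinase receptor, had ratios of 0.60 and 0.63, Klf5, an epithelial transcription factor, 0.57 and 0.66, Gprc5a 0.68 and 0.72, and Cdkn1a, the cell cycle inhibitor p21, 0.62 and 0.56. Pdgfa, a platelet-derived growth factor, had 0.66 and 0.49.

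On the lower side stood Ly6a, stem cell antigen Sca-1 (140 against 223 CPM and 149 against 249 CPM), and its family member Ly6c1, a Ly-6C surface antigen (42.9 against 77.9 CPM and 40.3 against 73.6 CPM). Socs3, a feedback inhibitor of cytokine signalling, stood at 214 against 339 CPM and at 268 against 410 CPM. Cebpd, a transcription factor, had ratios of -0.71 and -0.72, and Clu, clusterin, -0.53 and -0.71. Pf4 stood at 28.3 against 53.4 CPM and 35.1 against 65.2 CPM, and at 667 and 672 CPM in macrophage-gated cells. The share of Pf4 UMIs from free RNA was not tested. Col1a1 and Col3a1 were lower at -0.51 and -0.38 and at -0.34 and -0.33, beside the lower fibroblast marker sum given above. At 8000 to 20000 UMIs the ratios of Col1a1 were -0.24 and -0.11, those of Cebpd -0.32 and -0.60.

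Gene groups were read against 13677 genes with at least 20 UMIs in ligand-high cells, of which 28.6% were higher and 43.3% lower in both libraries and 2.62% reached a log2 ratio of 0.3 higher and 2.85% lower. At 2-fold these were 4 genes higher (0.0292%) and 7 lower (0.0512%). The median of all of them was -0.03 in either library. Groups are given as counts and medians with no test.

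The ERK output genes were mixed. Of 17 genes, 9 were higher and 3 lower in both libraries, 5 of them by 0.3 or more, with medians of 0.16 and 0.08. Besides Dusp5, Ier3 stood at 1309 against 986 CPM and 1252 against 928 CPM, Phlda1 at 2037 against 1708 CPM and 2047 against 1645 CPM, and Fosl1, an AP-1 subunit, at 191 against 137 CPM and 160 against 118 CPM. Spry1, a feedback inhibitor of receptor signalling, was lower at 8.42 against 20.1 CPM and 8.95 against 15.5 CPM. Ccnd1, cyclin D1, differed little (-0.03 and -0.14). Of 19 immediate-early genes 16 were higher in both libraries, most by little: the medians were 0.15 and 0.13, and Fos, the most abundant, had 0.03 and 0.04. Egr3 (0.56 and 0.60) and Atf3 (0.45 and 0.45) had the largest ratios at 20 CPM or more.

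Hypoxia and glycolysis genes and integrated stress response genes stood higher, but not all stress genes did. Of 11 cytosolic chaperones 4 were higher and 3 lower in both libraries, with medians of 0.01 and 0.00, and ER chaperones are given below. All 19 measured hypoxia and glycolysis genes were higher in both libraries, with medians of 0.21 and 0.20 and 6 genes at 0.3 or more. Vegfa, the vascular growth factor, stood at 141 against 92.9 CPM and 112 against 76.8 CPM, Ndrg1 at 392 against 270 CPM and 358 against 224 CPM, and the glycolytic enzyme Pgk1 at 713 against 577 CPM and 660 against 532 CPM. Ldha and Gapdh differed less, by 0.09 to 0.15. Among 17 genes of the integrated stress response, 14 were higher and 1 lower in both libraries and 9 reached 0.3, with medians of 0.36 and 0.36. Chac1, a glutathione-degrading enzyme, had ratios of 0.74 and 1.01, the stress cytokine Gdf15 0.46 and 0.49 and Nupr1 0.36 and 0.36, while the transcription factor Ddit3 did not differ (-0.01 and 0.02). Of 15 p53 targets 9 were higher and 3 lower, led at 20 CPM or more by Cdkn1a and Pmaip1.

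Wound-edge and squamous genes were higher in 10 of 13 measured, 6 by 0.3 or more, with medians of 0.35 and 0.32. The hyaluronan receptor Cd44 stood at 464 against 371 CPM and 432 against 347 CPM, the laminin receptor subunit Itga6 at 265 against 190 CPM and 245 against 185 CPM, and Stc1 at 43.3 against 28.5 CPM and 39.9 against 25.6 CPM. Of 14 plasminogen and matrix protease genes, 7 were higher and 5 lower, 4 higher by 0.3 or more. Mmp10, a stromelysin, had ratios of 0.58 and 0.51 and Mmp9, a gelatinase, -0.28 and -0.26. Of 12 measured chemokine and colony-stimulating factor genes, 7 were higher and 3 lower. Cxcl2, a neutrophil chemokine, stood at 767 against 566 CPM and 1100 against 721 CPM, and Cxcl10, an interferon-induced chemokine, at 154 against 183 CPM and 241 against 348 CPM. Of 18 measured YAP and TEAD targets, 11 were higher and 4 lower, with medians of 0.04 and 0.10. Between 8000 and 20000 UMIs the medians were 0.16 and 0.18, and at a threshold of 5 ligand UMIs the vehicle median was -0.007.

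Mitotic and antigen-presentation genes stood lower, the mitotic median of the RP-6306 library turning to 0.03 with the mean of per-cell CPM. Of 26 G2 and M phase genes, 20 were lower and 2 higher in both libraries, with medians of -0.18 and -0.08, and in cells of 8000 to 20000 UMIs the medians were -0.57 and -0.30. Ccnb2, cyclin B2, stood at 59.1 against 93.9 CPM and 52.1 against 75.9 CPM, and Cdc20, an activator of the anaphase-promoting complex, at 95.02 against 146 CPM and 91.9 against 114 CPM. Top2a differed by only -0.02 and -0.02. Cdk1 itself had -0.13 and 0.04, and Pkmyt1, the target of RP-6306, stood at 10.98 against 10.8 CPM and 9.26 against 8.84 CPM. S phase genes had medians of 0.08 and 0.05 over all depths and of -0.14 and -0.09 between 8000 and 20000 UMIs, so their direction turned with depth.

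None of 12 measured MHC class I presentation genes was higher in both libraries and 10 were lower, 4 by 0.3 or more, with medians of -0.25 and -0.26. The heavy chain H2-K1 stood at 2185 against 2510 CPM and 2512 against 2838 CPM, and the peptide transporter Tap1 at 33.8 against 45.8 CPM and 38.7 against 49.4 CPM. The immunoproteasome subunit Psmb9 stood at 33.0 against 45.7 CPM and 31.7 against 47.2 CPM. Type I interferon response genes had no common direction in the 2 libraries. Of 29 genes 14 were lower and 4 higher in both, a share of lower genes near the 43.3% of all genes, and 1 was higher and 0 lower by 0.3 or more. Their medians were 0.04 in the vehicle library and -0.23 in the RP-6306 library, and 0.13 and -0.28 between 8000 and 20000 UMIs. The vehicle median changed sign under other settings. Ifitm3, a restriction factor, was the most abundant and stood at 882 against 1120 CPM and 1021 against 1255 CPM. Of 12 ER chaperones, 10 were lower and 1 higher, by little (medians of -0.03 and -0.11).

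**Figure D4:**
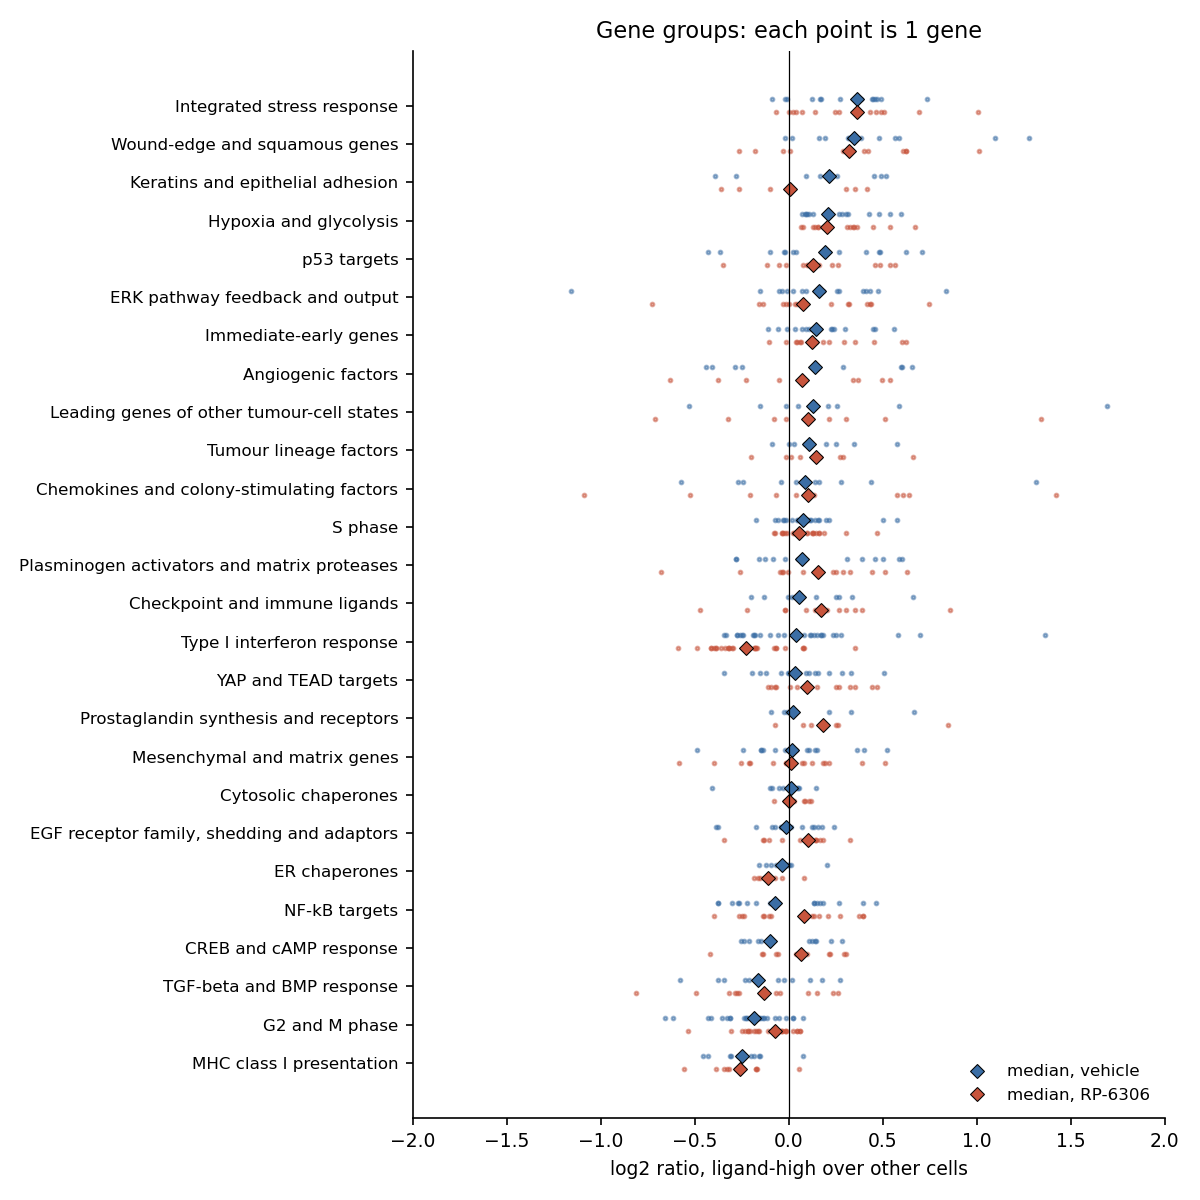
Log2 ratio of ligand-high over other tumour cells (x) for the genes of 26 groups (y), each small point 1 gene in 1 library and each diamond the median in the vehicle or RP-6306 library. The integrated stress response (0.36 and 0.36) is at the top and MHC class I presentation (-0.25 and -0.26) at the bottom, and no group median reaches 2-fold.

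Within the Serpinb2-low tumour cells, several of these genes followed the ligand count in steps. Cells were divided at 0 to 4, 5 to 9, 10 to 19, 20 to 39 and 40 or more ligand UMIs, with 4064, 1183, 821, 330 and 35 vehicle cells and 4277, 1147, 778, 340 and 35 RP-6306 cells. Nppb stood at 18.6, 31.4, 56.7, 99.5 and 170 CPM in the vehicle library and at 15.6, 31.7, 47.3, 55.2 and 91.6 CPM in the RP-6306 library, increasing at each step in both. Dusp5 went from 287 to 827 CPM and from 263 to 675 CPM, Il11 from 35.5 to 109 CPM and from 31.2 to 132 CPM, and Hbegf from 214 to 398 CPM and from 175 to 371 CPM. Ptn went the other way, from 154 to 32.9 CPM and from 134 to 20.4 CPM, and most of that difference lay below the threshold, since cells with 5 to 9 ligand UMIs had 73.0 and 65.1 CPM.

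Ly6a went from 244 to 108 CPM and from 272 to 98.4 CPM, and Ccnb2 from 98.1 to 41.9 CPM and from 78.2 to 25.4 CPM. Egfr stayed between 12.8 and 17.0 CPM in every band of both libraries. Areg and Ereg define the bands and follow them by construction. Btc, also counted by the rule, stood at 42.8 and 39.5 CPM in the lowest band and 111 and 100.9 CPM in the next, and at 128 to 186 CPM and 102 to 114 CPM above the threshold. Median depth moved with the bands, from 8589.5 to 19304 UMIs and from 8901 to 14789 UMIs. Between 8000 and 20000 UMIs Nppb went from 19.9 to 225 CPM and from 16.8 to 137 CPM and Ptn from 137 to 34.3 CPM and from 130 to 13.7 CPM, with only 19 vehicle cells in the highest band there. Up to 39 ligand UMIs, without that band, Nppb reached 123 and 64.8 CPM and Ptn 38.96 and 28.1 CPM.

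**Figure D5:**
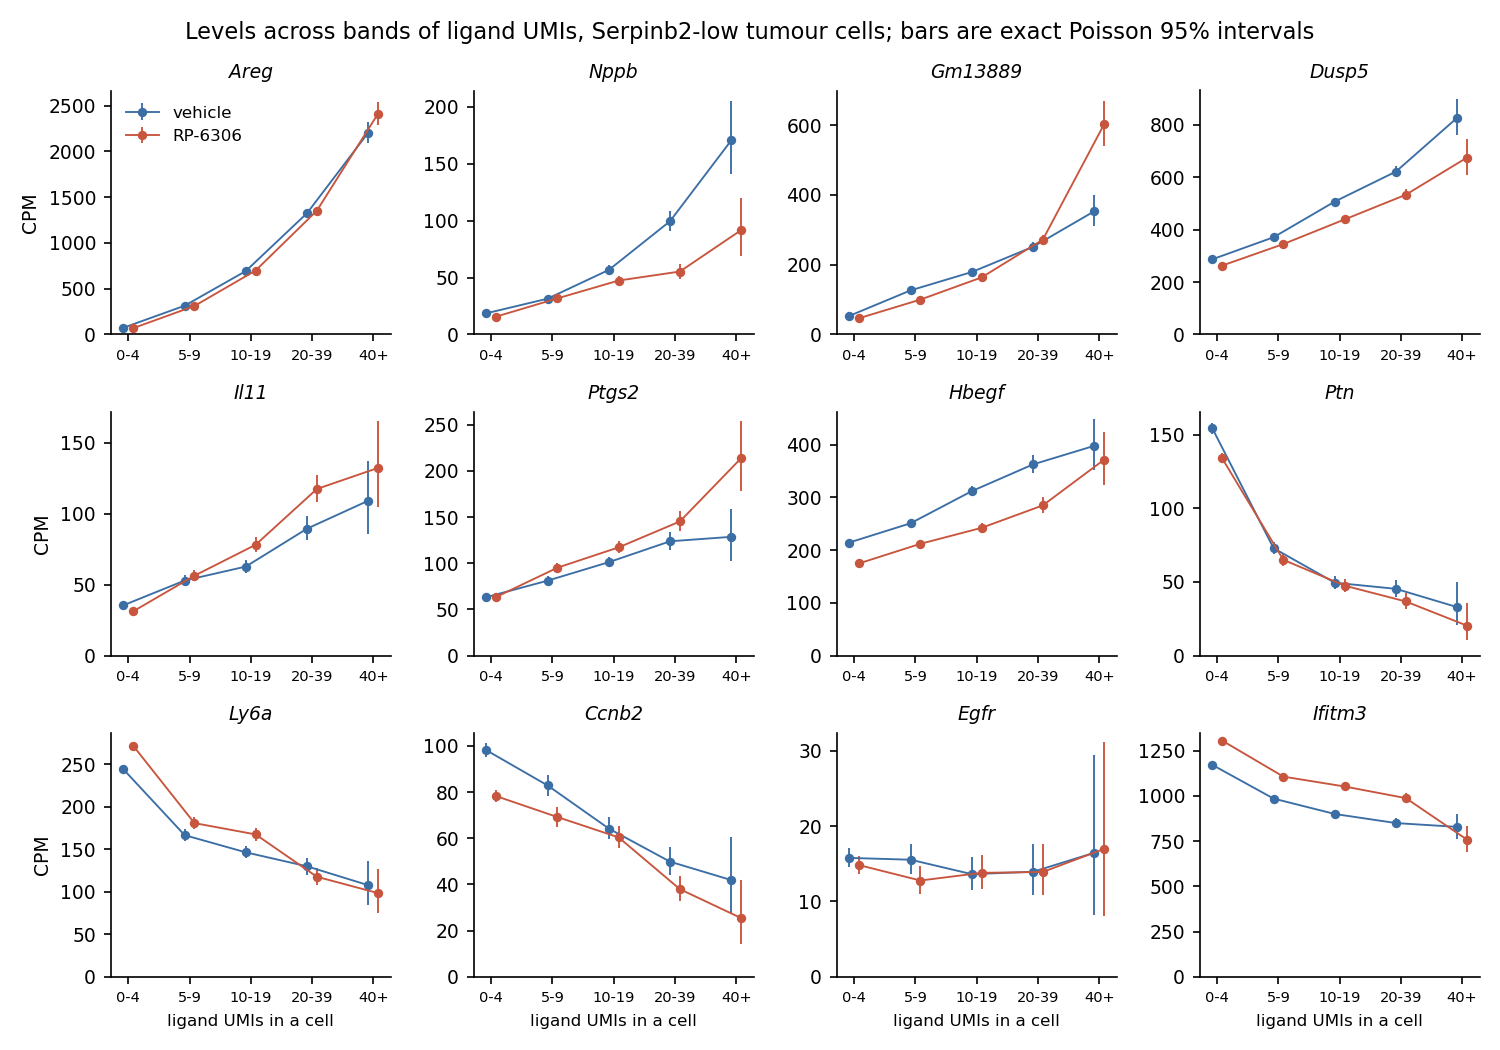
CPM (y, linear axes from 0) of 12 genes in 5 bands of ligand UMIs per cell (x) among Serpinb2-low tumour cells, 1 line per library, bars exact Poisson 95% intervals. Nppb climbs from 18.6 to 170 CPM in vehicle cells, Ptn drops from 154 to 32.9 CPM, and Egfr stays flat.

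Ligand-high cells were also set apart by which ligand led. Ereg-led cells (97 and 126) were compared with Areg-led cells, and of 3037 genes 0 were 2-fold higher and 0 lower in both libraries. Has2, a hyaluronan synthase, had the largest ratio on the higher side, at 61.8 against 35.5 CPM and 66.8 against 40.6 CPM. Thbs1, thrombospondin 1, stood at 465 against 293 CPM and 488 against 315 CPM. On the lower side stood Pclaf, a PCNA-binding factor, at 79.2 against 176 CPM and 115 against 180 CPM, and Rrm2, a subunit of ribonucleotide reductase, at 47.5 against 76.2 CPM and 48.97 against 74.2 CPM. Cryab, a small heat shock protein, stood at 15.8 against 70.6 CPM in the vehicle library and at 33.7 against 50.7 CPM in the RP-6306 library. Btc-led cells (29 and 17) held less Il11, 11.7 against 75.8 CPM and 27.2 against 94.9 CPM, resting on 6 and 8 UMIs. It was 1 of 4 genes at least 2-fold lower in both libraries, with Gm20186, Nr4a2 and Rgcc. Ifit3, Rsad2 and Isg15 were at least 2-fold higher in Btc-led cells of both libraries, of 3076 genes, but 1 cell held many of their UMIs. Ifit3 UMIs were found in 1 and 3 Btc-led cells and Rsad2 UMIs in 2 and 4. Isg15 UMIs were found in 14 and 10. All 40 Ifit3 UMIs of the vehicle library lay in 1 cell, and 52 of 66 in the RP-6306 library. For Rsad2, 1 cell held 29 of 30 and 47 of 103 UMIs, and for Isg15 28 of 51 and 34 of 95. These genes were named after their values were seen, and leading-ligand groups use the same ligand counts as the rule.

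Serpinb2, which encodes a plasminogen activator inhibitor, overlapped with the ligands. It was held by at least 2 UMIs in 34.8% of all cells with 10 or more ligand UMIs in the vehicle library (634 of 1820) and in 38.9% in the RP-6306 library (734 of 1887), against 7.13% and 8.66% of cells below 10. Between 8000 and 20000 UMIs the shares were 32.0% and 39.1% against 8.91% and 10.6%. The rule removed these 634 and 734 cells. Those Serpinb2-positive cells had more Nppb than the ligand-high cells kept here, 191 against 73.8 CPM and 149 against 51.4 CPM, the only gene at 2-fold higher in both libraries (0.033%). No gene was 2-fold lower, and 38 (1.25%) and 34 (1.12%) reached 0.3. Gm13889 stood at 430 and 407 CPM, Ptn at 22.8 and 21.6 CPM and Areg at 1017 and 1078 CPM in the Serpinb2-positive cells. Nppb, Gm13889 and Ptn thus continued in the same direction into the cells the rule leaves out. The compared sets were not balanced for Serpinb2. Exactly 1 Serpinb2 UMI was held by 279 of 1186 vehicle and 291 of 1153 RP-6306 ligand-high cells. In other cells it was held by 490 of 5247 and 555 of 5424. Whether the differences go with the ligands or with Serpinb2 was not tested.

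Between the treatments, ligand-high cells differed by more than 2-fold in a single gene. The comparison covered 3141 genes, each with 100 or more UMIs in the pooled libraries and 50 CPM in at least 1 of them. Of these 1 was 2-fold higher in the RP-6306 library (0.0318%) and 0 were lower (0%), while at any size 42.1% were higher and 57.9% lower. That gene was Rsad2, the antiviral enzyme viperin, at 23.4 CPM in vehicle and 54.1 CPM in RP-6306 ligand-high cells, a ratio of 2.31 (interval 2.05 to 2.61). In other tumour cells it stood at 21.5 and 61.4 CPM. Its UMIs were found in 109 (9.19%) and 182 (15.8%) ligand-high cells, with up to 42 and 47 in 1 cell. As the mean of per-cell CPM its log2 ratio was 0.82, below 2-fold, against 1.18 here. With cells thinned to 5000 UMIs and a threshold of 5 ligand UMIs it was 0.65.

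The next 4 on the higher side were Sdf2l1, an ER chaperone partner (62.8 and 125 CPM, vehicle first), Hsph1, a cytosolic chaperone (162 and 280 CPM), Ahsa2, a co-chaperone of HSP90 (49.3 and 85.9 CPM), and Isg15, a ubiquitin-like interferon product (54.1 and 92.6 CPM). On the lower side the 5 largest were Barx2, a homeobox factor (83.2 and 50.8 CPM), Pmvk, an enzyme of cholesterol synthesis (50.7 and 30.9 CPM), S100a4 (342 and 211 CPM), Id1, a BMP-responsive inhibitor of differentiation (703 and 442 CPM), and Egr3 (163 and 104 CPM). In other tumour cells the log2 ratios of these 9 genes had the same sign, for example 1.01 for Sdf2l1 against 0.98 in ligand-high cells and -0.68 for Id1 against -0.67. At 0.3 or more, 67 genes were higher (2.13%) and 102 lower (3.25%).

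By groups, 28 of 29 type I interferon genes were higher in RP-6306 ligand-high cells, 24 by 0.3 or more, with a median of 0.41 against 0.66 in other cells. Over all 13677 genes 43.2% were higher and 56.8% lower, 6.72% were higher and 9.1% lower by 0.3 or more, and 0.124% were higher and 0.0146% lower at 2-fold. All 26 G2 and M phase genes were lower, with a median of -0.23 against -0.35 in other cells. Of 12 ER chaperones 10 were higher (median 0.27 against 0.35 in other cells). Of 19 hypoxia and glycolysis genes 17 were lower (median -0.21 against -0.23 in other cells). Of 13 TGF-beta and BMP response genes 10 were lower, 7 by 0.3 or more (median -0.32 against -0.29 in other cells).

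Among the ligands, Areg was nearly equal between the libraries in ligand-high cells, with a ratio of 1.03 (interval 1.004 to 1.05). Ereg was higher in the RP-6306 library at 1.23 (1.17 to 1.29), and Btc was lower at 0.821 (0.771 to 0.874). As rule genes, these are descriptions. Hbegf was lower at 0.788 (0.757 to 0.820), and in other cells at 0.821 (0.800 to 0.843). Nppb was lower at 0.697 (0.638 to 0.761), against 0.891 (0.821 to 0.968) in other cells. Il11 was higher at 1.27 (1.18 to 1.37) in ligand-high cells and lower at 0.933 (0.879 to 0.990) in other cells, a difference between the sets of 0.44 on the log2 scale. Dusp5 was lower at 0.861 (0.836 to 0.888). Whether such differences exceed the spread between tumours could not be tested with 1 library each.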

How the data were processed

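For each library the authors deposited barcodes, features and a matrix of raw UMI counts, whose values are whole numbers without normalization. The matrix headers record Cell Ranger 7.1.0, per the file headers, but version 2.1.1 with mm10 is listed per the submitters' processing notes, a difference not resolved here. Library preparation used a 10x Genomics 3′ kit, per the labels' protocols. No replicates exist.

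Ligand-high cells, gene lists and markers were chosen with earlier results of these data known. Counts were summed per set of cells and library and scaled to CPM, and ratios are log2(CPM + 1), which understates low genes. Intervals are exact Poisson for levels, Clopper-Pearson for shares, exact conditional for ratios of rates (without the 1 CPM added) and square-and-add for differences of shares. Genes were named when past 2-fold in both libraries (at least 100 UMIs, 50 CPM), at most 15 per direction, leaving out mitochondrial, ribosomal, haemoglobin, Gm-numbered, Rik and rule genes. Between libraries the limit was 10 per direction, or the 5 largest where fewer passed. Within lists the 4 most abundant and 2 most different genes per direction at 20 CPM or more were eligible, and further genes are said to be chosen afterwards. Depths were 100815022 UMIs in 9686 vehicle and 106465655 UMIs in 10512 RP-6306 barcodes. The libraries share 34 barcodes, of which 5 vehicle and 2 RP-6306 ones are ligand-high and none is ligand-high in both. Scrublet in scanpy 1.11.5 called 0 and 1 doublets, a failed call, so doublets were kept and an alternative left out the top 8% of scores (684 and 808 cells). Repeated symbols (Aldoa, Ddit3, Nrg1) took the lowest Ensembl identifier, and Ddit3 is uncertain because its 2 features overlap. Near-identical paralogs, such as MHC class I and Ifit genes, can lose shared reads. Identifiers matched GENCODE M21 for 52081 of 55357 features, and TMM factors came from edgeR 4.0.16. The call rules were run on simulated Poisson counts without clumping in single cells, so that run cannot speak for genes whose UMIs clump.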

Additional observations from a re-analysis of the deposited data

Results flagged for a closer look

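Ligand UMIs also appeared in barcodes that the tumour gate leaves out. In the vehicle library 127 of 2070 such barcodes carried at least 10 Areg, Ereg and Btc UMIs (6.14%, exact binomial interval 5.14 to 7.26%), and in the RP-6306 library 165 of 2483 (6.65%, 5.70 to 7.70%). Most carried both keratin and leukocyte-gene UMIs, 81 and 87 of them, which is 32.5% and 33.1% of all barcodes of that kind, at median depths of 18720 and 19288 UMIs. Of these 81 and 87, 18 and 25 had doublet scores in the top 8% of their library. A further 43 and 75 were low in keratin and leukocyte genes alike. Macrophage-gated barcodes reached 10 ligand UMIs in 3 of 444 and 1 of 497 cases. What these barcodes are was not tested.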

How the results depend on the processing

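No paired analysis was possible because each treatment has 1 library, and for the same reason no replicate could be left out. The share of ligand-high cells was 31.7% (vehicle) and 29.4% (RP-6306), a difference of -2.32 points, at 5 ligand UMIs. At 20 the shares were 4.89% and 4.79%, -0.09 points apart. With the rule on cells thinned to 5000 UMIs, at a threshold of 5 ligand UMIs, they were 14.5% and 14.1%, -0.39 points apart, against -1.14 as reported. It was 19.7% and 17.0%, a difference of -2.67 points, between 8000 and 20000 UMIs. Genes at 2-fold between ligand-high and other cells numbered 1 higher and 2 lower at 5 ligand UMIs, 2 lower with mean per-cell CPM, and 4 higher and 7 lower with 20 UMIs and no CPM minimum. With all tumour cells outside the set as reference, 0 were higher. Added after the data were seen, a log2 ratio of 0.3 gave 86 higher and 32 lower. For RP-6306 over vehicle in ligand-high cells, 2 genes were higher with TMM scaling, 0 with mean per-cell CPM or the thinned rule, 17 higher and 2 lower with 20 UMIs and no CPM minimum, and 67 higher and 102 lower at 0.3. The causes were not tested, except that the last 2 settings admit scarcer genes or smaller ratios by construction. All 114 gene ratios checked kept their sign in every alternative run. They belong to genes picked for large ratios in these same cells, for which a kept sign is likely. Of 81 group medians, 49 kept their sign. Hypoxia and glycolysis (0.14 to 0.30 and 0.13 to 0.37), integrated stress response (0.22 to 0.39 and 0.21 to 0.41) and MHC class I (-0.27 to -0.13 and -0.39 to -0.19) kept theirs, while G2 and M phase spanned -0.79 to -0.07 and -0.65 to 0.03. Depth limits genes under about 1 CPM, such as Epgn, Egf and Erbb3.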

Other observations

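The ratio of ligand-high to other cells differed most between the libraries for Il11 and Nppb among the genes tested. The next differences in size were those of Cdc20 (-0.61 in the vehicle and -0.31 in the RP-6306 library) and Depp1 (0.14 and -0.15). Cxcl10 (-0.24 and -0.53), Plet1 (0.56 and 0.29) and Ube2c (-0.43 and -0.16) followed. Cxcl10 was higher in the RP-6306 than in the vehicle library in both sets of cells, by 0.64 on the log2 scale in ligand-high and 0.93 in other tumour cells. Ube2c, a mitotic ubiquitin-conjugating enzyme, was lower by less in ligand-high (-0.07) than in other cells (-0.34). These genes were chosen after their values were seen, and the differences were not tested.

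Il11 UMIs were found in 440 of 1186 vehicle and 435 of 1153 RP-6306 ligand-high cells, 37.1% and 37.7%, with up to 24 and 25 UMIs in 1 cell, so that the higher RP-6306 level went with a like share of cells carrying it.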
